A study of Homo sapiens with 21 samples.

Results

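The genes described here are the ATP-binding cassette (ABC) transporters of subfamilies A, B, C, D and G, chosen as the protein-coding genes whose symbols begin with ABCA, ABCB, ABCC, ABCD or ABCG and a digit. Of 62656 genes in the count table, 60 matched the symbol pattern and 41 of these were protein-coding members. The other 19 were pseudogenes or antisense transcripts, or had no gene type in the annotation used. RNA came from SH-SY5Y, a human neuroblastoma line, wild type by its label, that had been differentiated into neuron-like cells over 11 days. Each of 6 groups received 1 per- or polyfluoroalkyl substance (PFAS) at 30 µM for 24 h in 1% methanol (PFOA, PFOS, PFDA, PFDS, 8:2 FTS or 8:2 FTOH), and the seventh was labelled Control. The vehicle content of the Control plates was not stated. Each group had 3 libraries. The labels do not say whether these 3 came from separate cultures, so p-values measure no more than how these samples vary, and that variation may be technical. All libraries come from 1 cell line, and in bulk RNA fewer cells of a type and less RNA per cell cannot be told apart.

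Total counts per library ran from 7680024 to 30429746 with a median of 14633793. All 8 neuronal and all 6 noradrenergic marker genes passed the filter on low counts, as did all 4 cycling markers. Of 8 markers of glia, endothelium, immune cells and epithelium, 4 passed, with a summed level of 1.05 to 2.05 CPM per kilobase (CPM, counts scaled to a common library size) against 789 to 1001 for the neuronal markers. PECAM1, PTPRC, CD68 and KRT18 did not pass. The cycling markers had a summed level of 180 to 230 CPM per kilobase. Of 8 mesenchymal or Schwann-like markers 7 passed, with a summed level of 8.92 to 10.8, and PRRX1 did not. Control replicate 3 and 8:2 FTOH replicate 3 stood apart by the highest shares of counts from the mitochondrial chromosome, 6.33% and 6.11%. The other 19 libraries had 3.37% to 5.40%. Among these, PFDA replicate 2 had 5.40%, where the rest of its group had 3.66% and 3.37%. PFDS replicate 1 had 5.24%, where the rest of its group had 3.93% and 4.12%. Several values below are also given without the pair of highest share. The PFDA and PFDS libraries were left out only 1 at a time.

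ABC transporters are membrane proteins that use ATP to move lipids, drugs, conjugates or metabolites across a membrane, as whole proteins or as dimers of smaller ones. ABCA and ABCG members are known mainly for moving sterols and phospholipids, ABCB and ABCC members for drug and conjugate efflux and for mitochondrial transport, and ABCD members for import of fatty acyl-CoA into peroxisomes. In brain, ABCB1 and ABCG2 limit drug entry at the blood-brain barrier, and ABCA1 and ABCG1 load cholesterol onto lipoproteins.

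None of the members passed an adjusted p of 0.05 for any compound against Control. Differentiated cells carried a broad set of these transporters, led by the drug efflux pump ABCB1, and the abundant members stayed close to their Control levels in all 6 exposures. The filter on low counts kept 31 of the 41 members: 6 of 12 in ABCA, 7 of 9 in ABCB, 10 of 11 in ABCC, all 4 in ABCD and 4 of 5 in ABCG. Levels are given as CPM, the counts scaled to a common library size, and, to compare genes, as CPM per kilobase of exon length. Summed over the 31 members the level was 180.4 ± 2.40 CPM per kilobase in Control (SD, n = 3). The group means for the 6 compounds lay between 180.2 and 181.9, and the summed level of every group overlapped that of Control.

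In Control, ABCB1 (ENSG00000085563, hg38 chr7:87503017-87713323, minus strand) had a level of 47.2 ± 2.06 CPM per kilobase (SD, n = 3). ABCB1 encodes P-glycoprotein, and its level made up 26.2% ± 0.897 of the summed level and lay above that of 97.3% of protein-coding genes. Next came ABCA3 at 23.8 ± 0.953 (ENSG00000167972, chr16:2275881-2340746, minus strand), a phospholipid transporter of lamellar bodies. ABCD2, a peroxisomal importer, followed at 13.9 ± 1.84, and ABCC1, the glutathione conjugate pump MRP1, at 13.5 ± 0.477. The Control libraries of ABCB1, ABCA3 and ABCD2 did not overlap in that order, whereas those of ABCD2 and ABCC1 did. ABCD3 (10.8 ± 0.935) and ABCA2 (10.4 ± 0.648) overlapped each other, and ABCC5 (7.89 ± 0.244), ABCB8 (7.38 ± 0.939) and ABCB10 (6.07 ± 0.493) followed. Along the whole order of 31 members, 10 of 30 neighbouring pairs had Control libraries that did not overlap.

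**Figure D1:**
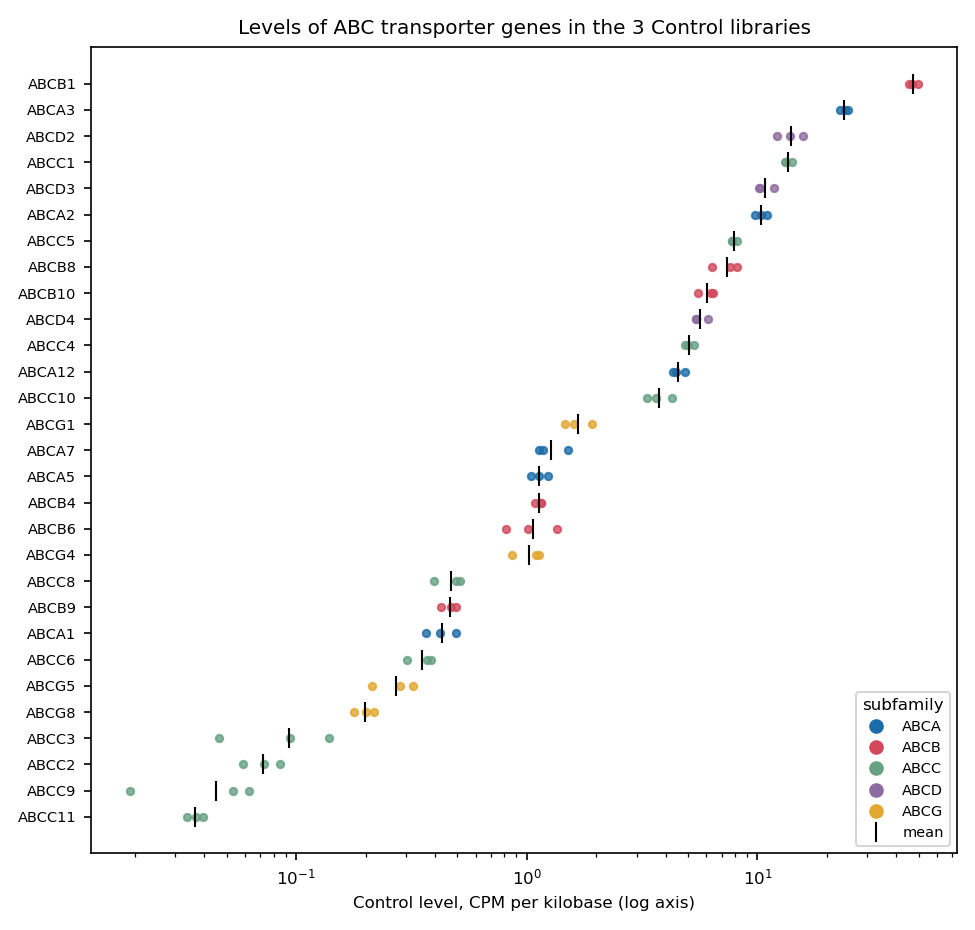
Level of the ABC members reported here in Control, as CPM per kilobase on a log axis, with 1 point per library, a bar at the mean and colours for the subfamilies. ABCB1 lies highest at 47.2, and the 6 lowest (ABCG5, ABCG8, ABCC3, ABCC2, ABCC9 and ABCC11) are below 0.3.

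The 10 members that failed the filter had few counts or none. ABCA4, the retinal retinoid transporter, had 84 counts in all 21 libraries together and ABCA10 had 26. ABCG2, the breast cancer resistance protein, had 11 counts spread over 7 libraries, with at most 2 in any of them. ABCA8 and ABCC12 had 8 each, ABCA9 5, ABCA13 2, and ABCB11, the bile salt export pump of liver, 1. ABCA6 and ABCB5 had 0 counts among 381471854, which allows a level of up to 0.00786 CPM for counting error only. Of the pair of efflux pumps known from the blood-brain barrier, then, ABCB1 ranked first of all members and ABCG2 was close to undetected in the same libraries.

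The 250 bases before the gene starts in RefSeq (GRCh38.p14) were read for the 31 members that the promoter table holds, 49 windows in all. The dinucleotide CG, which can be methylated and is dense in CpG island promoters, was counted in each. At least 10 CG were found in 71.4% of the 35 windows of tested members (24 genes, median 17 CG) and in 21.4% of the 14 windows of members that failed the filter (7 genes, median 2 CG), against 52.2% of all 35116 windows (median 11). Among the latter 7 genes the 1 with such a window was ABCG2, whose windows held 2 to 32 CG. Over all 49 windows of members the share with at least 10 CG was 57.1%. The filter keeps expressed genes, and the share for all tested genes was not computed. Members of similar abundance could differ in CG content. ABCD2 and ABCD3, with Control levels of 13.9 and 10.8, held at most 7 and 34 CG, and the windows of ABCB1 held 1 and 12. The GC box letters GGGCGG, on either strand, stood in 57.1% of the windows of tested members and in 42.6% of all windows. The share was 14.3% for members that failed the filter and 44.9% over all windows of members. Below are an expressed member with a CG-rich window (ABCD3, chr1:94418139-94418388, plus strand, 34 CG), an expressed member with a CG-poor one (ABCD2, chr12:39619804-39620053, minus strand, 7 CG) and a member without a count (ABCA6, chr17:69141896-69142145, minus strand, 2 CG), each 5′ to 3′ with CG in capitals. These are descriptions of letters and no methylation was measured.
ABCD3: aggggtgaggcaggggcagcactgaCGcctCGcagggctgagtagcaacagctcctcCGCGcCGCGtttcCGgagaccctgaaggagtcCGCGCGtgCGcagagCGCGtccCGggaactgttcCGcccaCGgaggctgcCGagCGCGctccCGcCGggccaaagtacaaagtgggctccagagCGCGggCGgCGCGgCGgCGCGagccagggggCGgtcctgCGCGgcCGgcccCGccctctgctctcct
ABCD2: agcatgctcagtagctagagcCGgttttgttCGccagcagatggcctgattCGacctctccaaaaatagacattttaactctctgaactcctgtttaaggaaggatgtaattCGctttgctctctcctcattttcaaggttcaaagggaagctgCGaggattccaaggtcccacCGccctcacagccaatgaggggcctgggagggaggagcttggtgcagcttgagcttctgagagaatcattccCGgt
ABCA6: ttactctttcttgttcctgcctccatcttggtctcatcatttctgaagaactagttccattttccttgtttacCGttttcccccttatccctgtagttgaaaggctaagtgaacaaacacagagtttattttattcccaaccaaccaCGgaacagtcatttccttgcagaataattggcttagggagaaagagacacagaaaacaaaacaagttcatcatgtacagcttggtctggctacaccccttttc

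Each compound was compared with Control to ask which transporters change with exposure. The test was edgeR's quasi-likelihood test over 24879 genes with Benjamini-Hochberg adjustment. For PFOA 0 of 31 members passed, where 0.0322% of all genes did, and 1 member had an unadjusted p under 0.05, where 10.1% of all genes did. For PFOS the counts were 0 (0.0241% of all genes) and 2 (6.83%). For PFDA they were 0 (0.00804%) and 0 (8.43%). For PFDS they were 0 (0.0241%) and 3 (5.58%). For 8:2 FTS they were 0 (0.0844%) and 2 (7.77%), and for 8:2 FTOH 0 (0.0322%) and 1 (7.83%). In all, 9 of 186 tests of a member for a compound had an unadjusted p under 0.05 (4.84%), against 7.75% over all genes. DESeq2 called 0 members as well, but gave 8 to 26 of its 39 members no adjusted p, depending on the compound.

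The lowest adjusted p-values against Control belonged to ABCA3 in PFOA (0.325), ABCC1 in 8:2 FTOH (0.552), ABCG8 in PFOS (0.566), ABCA2 in 8:2 FTS (0.572), ABCC4 in PFDA (0.601) and ABCG5 in PFDS (0.758). For the mean of the 6 compounds against Control, 0 of 31 members passed (0.35% of all genes) and 1 had an unadjusted p under 0.05 (9.98%). In the test of any difference among the 7 groups, 0 passed (0.0322%) and 1 had an unadjusted p under 0.05 (5.91%). Without the pair of libraries that stood apart, 0 members passed in any of these comparisons, with a lowest adjusted p of 0.182 for PFOA.

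The absence of calls came with narrow intervals for the abundant members. Of 21 members at a Control level of 1 or more, 18 had 95% intervals within 0.5 on the log2 scale for all 6 compounds. This is a 1.41-fold change either way. The other 3 were ABCB6, ABCG1 and ABCG4, and no member below that level had such intervals. For 25 of the 31 members the intervals for all 6 compounds lay within 1, a 2-fold change. For single compounds, 20 to 22 of 31 members had an interval within 0.5, where 43.95% to 45.36% of all genes did. Within 1 there were 25 to 26 members, where 68.66% to 70.71% of all genes were. The intervals cover 1 test each and are not widened for the number of members. For ABCB1 the outer bounds over the 6 compounds were 0.809-fold and 1.10-fold of Control, for ABCC1 0.870-fold and 1.26-fold, and for ABCD4 0.845-fold and 1.19-fold. At the other end stood ABCC11, with bounds of 0.191-fold and 6.25-fold, and ABCG5, with bounds of 0.153-fold and 2.16-fold. For these low members the intervals reached beyond a 2-fold change. The median SD of log2 CPM within groups was 0.170 for the tested members and 0.252 for all tested genes.

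**Figure D2:**
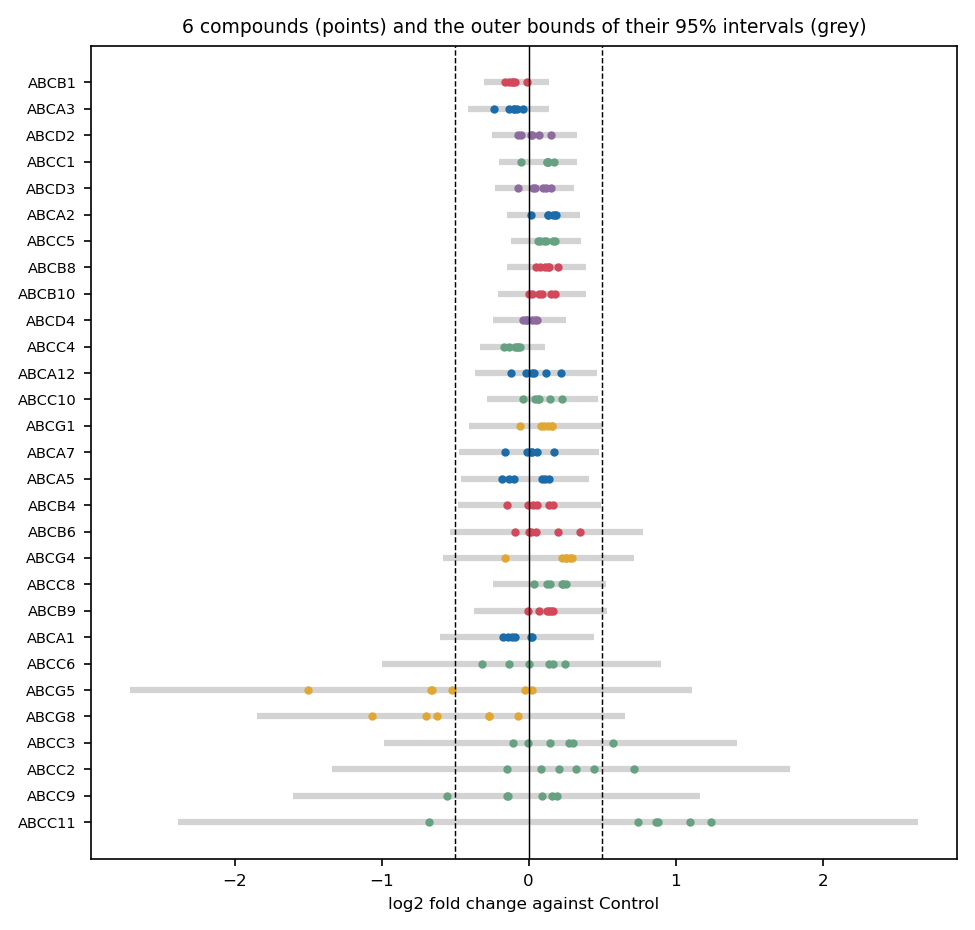
log2 fold change of the members reported here against Control for the 6 compounds (points), with the outermost bounds of the 6 95% intervals (grey bars) and dashed lines at -0.5 and 0.5, members ordered by Control level. The bars are shortest among the upper members and widen toward the bottom, reaching -2.71 for ABCG5 and 2.65 for ABCC11.

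The first group by role exports cholesterol and phospholipid at the cell surface: ABCA1, ABCG1, ABCG4, ABCA7 and ABCB4, all tested. None passed for any compound, and their 30 tests held 0 with an unadjusted p under 0.05 (7.75% over all genes and compounds). ABCA1, which hands cholesterol to apolipoprotein A-I and is a classic target of the sterol sensor LXR, had 4.79, 4.14 and 5.60 CPM in the 3 Control libraries. Its values were 4.70, 4.40 and 4.32 in PFOA, 4.58, 4.34 and 4.18 in PFOS, 4.39, 4.72 and 4.53 in PFDA, 4.64, 4.94 and 5.05 in PFDS, 4.18, 4.76 and 5.97 in 8:2 FTS, and 5.18, 3.43 and 4.52 in 8:2 FTOH. Every compound group overlapped Control, and the log2 fold changes ran from -0.17 to 0.02. ABCG1, the partner that passes cholesterol to high-density lipoprotein, had 8.95, 9.83 and 11.8 CPM in Control, and its log2 fold changes ran from -0.06 to 0.16. Its 3 PFDS libraries were spread more widely than any other group, at 6.91, 11.7 and 13.6 CPM. ABCG4, the close homologue expressed in neurons, had 6.83, 5.35 and 7.03 CPM in Control. It was nominally higher in 5 compounds, with log2 fold changes up to 0.29, and nominally lower in PFDS at -0.16, with group values of 4.55, 5.83 and 6.56 CPM that overlapped Control. Summed over the 5 exporters the level in CPM per kilobase was 5.52 ± 0.340 in Control (SD, n = 3) and 5.40 to 5.99 in the compound means.

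The second group moves lipid inside the cell, and 4 of its 10 members were tested: ABCA2, ABCA3, ABCA5 and ABCA12. Of their 24 tests, 4 had an unadjusted p under 0.05 (7.75% over all genes and compounds), and none passed the adjusted threshold. Of these 4, 3 were for ABCA2, in comparisons that share the Control libraries. ABCA3 had 193, 186 and 178 CPM in Control and 144, 167 and 161 in PFOA. All 3 PFOA libraries lay below all 3 Control libraries, and the fold was 0.848 with a 95% interval from 0.751 to 0.957 and an adjusted p of 0.325. The other compounds gave ABCA3 group means of 173 in PFOS, 169 in PFDA, 181 in PFDS, 176 in 8:2 FTS and 173 in 8:2 FTOH, against 186 in Control, and each of these groups overlapped Control. ABCA2, an endolysosomal protein abundant in brain that is linked to sphingolipid and cholesterol handling, had 127, 119 and 112 CPM in Control. Its 8:2 FTS libraries, at 132, 132 and 144 CPM, all lay above Control, with a fold of 1.14 (95% interval 1.01 to 1.27, adjusted p = 0.572). In PFOS the values were 137, 140 and 126, in PFDS 114, 143 and 149, in PFDA 135, 126 and 132, in 8:2 FTOH 122, 147 and 123, and in PFOA 122, 118 and 123 CPM. Each of these 5 groups reached into the Control range. For the mean of the 6 compounds against Control ABCA2 had the lowest p of all members, with a fold of 1.10 (95% interval 1.01 to 1.20, adjusted p = 0.458). Without the pair of libraries that stood apart its log2 fold change over the 6 compounds was 0.10 in place of 0.13 (adjusted p = 0.693), and that for PFOA turned from 0.01 to -0.03.

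ABCA12, the lamellar granule lipid transporter of skin, had 41.4, 46.5 and 42.6 CPM in Control. Its spread was large in 8:2 FTS, at 44.1, 32.98 and 56.8 CPM. ABCA5, a lysosomal member, had 14.9, 13.7 and 16.2 CPM in Control and log2 fold changes from -0.18 to 0.14. Its exons share 2.42% of their length with ABCA10 on the same strand. The level of the 4 genes together was 39.9 ± 1.504 CPM per kilobase in Control and 36.8 ± 1.37 in PFOA (SD, n = 3). The lower sum lay in ABCA3 alone, at 23.8 in Control and 20.2 in PFOA, and the means of the other 3 genes were higher in PFOA than in Control.

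ABCG5 and ABCG8, which dimerise to export plant sterols and cholesterol in gut and liver, were near the floor. ABCG8 had 1.82, 2.22 and 2.04 CPM in Control, from 41, 53 and 43 counts. In PFOS it had 0.677, 0.449 and 1.85 CPM, from 21, 6 and 27 counts, which gave a fold of 0.477 (95% interval 0.278 to 0.819, adjusted p = 0.566). One PFOS library lay within the Control range. ABCG8 was nominally lower than Control for all 6 compounds, with log2 fold changes from -1.07 to -0.07, and all libraries lay below Control for PFOA, 8:2 FTS and 8:2 FTOH. These comparisons share the same 3 Control libraries, so the repeated sign is not independent. ABCG5 had 27, 19 and 22 counts in Control and 4, 2 and 13 in PFDS, or 1.20, 0.795 and 1.05 against 0.337, 0.148 and 0.505 CPM. The PFDS libraries all lay below Control, with a fold of 0.354 (95% interval 0.153 to 0.818, adjusted p = 0.758). The genes lie head to head and share 137 exon bases on opposite strands, and their patterns differed in PFDS, where ABCG8 had 2.28, 1.62 and 1.90 CPM and overlapped Control.

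The peroxisomal importers ABCD2 and ABCD3, and ABCD4, which works in lysosomal cobalamin export, were tested and well expressed. None of their tests against Control had an unadjusted p under 0.05 (7.75% over all genes and compounds). ABCD2, an importer of fatty acyl-CoA, had 76.4, 87.1 and 99.4 CPM in Control and log2 fold changes from -0.07 to 0.15. ABCD3, a carrier of branched-chain and bile acid intermediates, had 78.0, 78.5 and 90.6 CPM in Control, and its log2 fold changes ran from -0.07 to 0.15. ABCD4 had the narrowest range of all members, from -0.04 to 0.05. Its exons share 6.99% of their length with another annotated gene on the same strand. Counts of ABCB10 are uncertain because pseudogene copies of it exist and reads that fit several places were not counted.

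**Figure D3:**
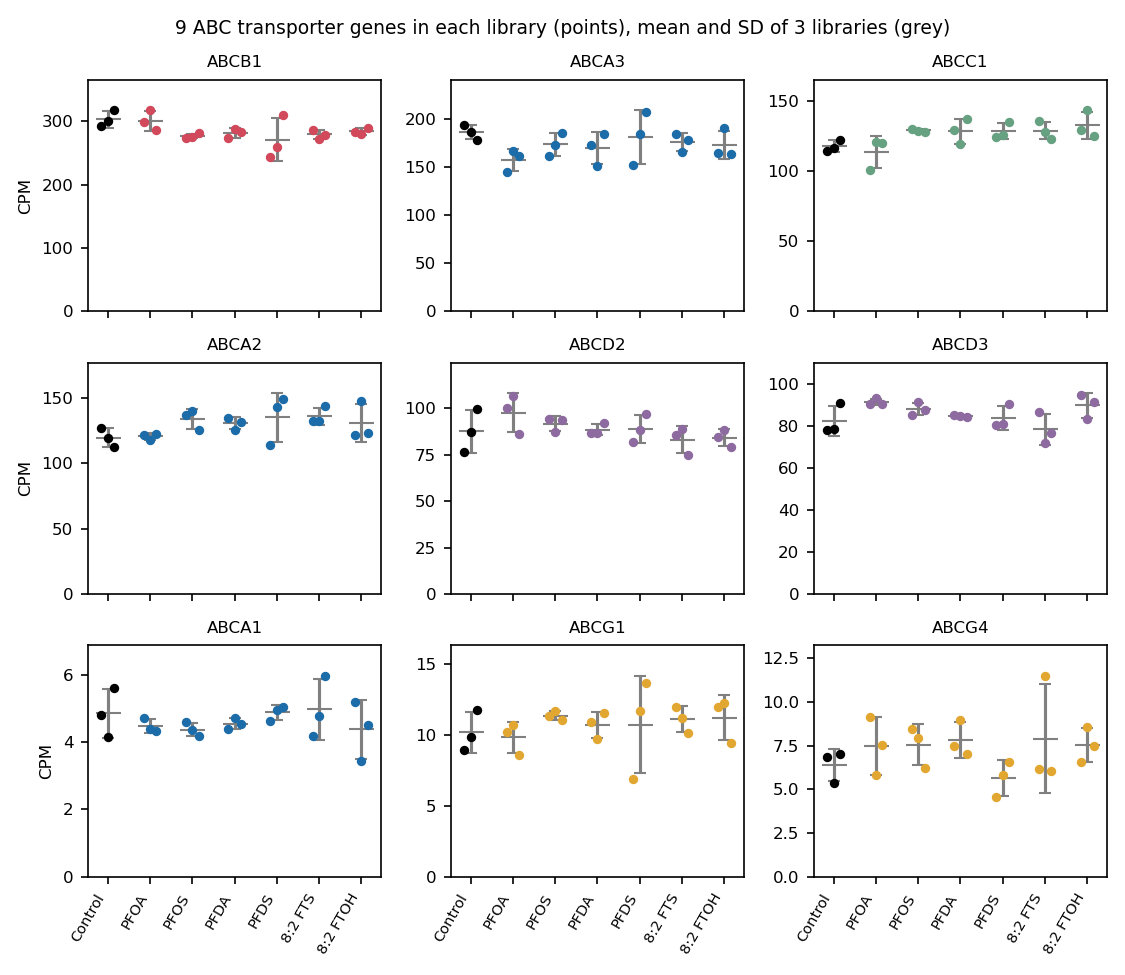
CPM of 9 ABC members in each library (points, black for Control), with grey bars for the mean and SD of the 3 libraries of each group and axes that start at 0. ABCB1 is lower in all PFOS, PFDA, 8:2 FTS and 8:2 FTOH libraries than in Control, and ABCA3 is lower in all PFOA libraries, by small fractions of their level and without passing the adjusted threshold. All compounds are set against the same 3 Control libraries.

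The dimeric transporters of mitochondria and lysosomes include ABCB6, ABCB8, ABCB9 and ABCB10. Of the tests of these against Control, 1 had an unadjusted p under 0.05 (7.75% over all genes and compounds). ABCB8, a mitochondrial inner membrane protein linked to iron and potassium transport, had 76.5, 70.9 and 59.3 CPM in Control and 75.8, 85.4 and 76.0 in 8:2 FTS. The groups overlapped by 1 Control library, and the fold was 1.146 (95% interval 1.001 to 1.31, adjusted p = 0.641). Its lowest Control library was 1 of the pair that stood apart, and without the pair the ABCB8 log2 fold change was 0.102 in place of 0.197 (adjusted p = 0.842) and was positive for 3 compounds in place of 6. ABCB10, which is needed for heme synthesis, had 26.7, 23.5 and 27.5 CPM in Control, and its PFDS libraries, at 29.2, 29.7 and 27.6, lay above these with a fold of 1.11. ABCB6 and ABCB9 are uncertain: 54.6% of the exon length of ABCB6 lies in another annotated gene on the same strand, and ABCB9 shares exon bases with OGFOD2 and ARL6IP4 on the opposite strand, in counts made without strand.

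Efflux of drugs and conjugates was the largest role, with 9 of 11 members tested: ABCB1, ABCC1 to ABCC6, ABCC10 and ABCC11. Their 54 tests held 2 with an unadjusted p under 0.05 (7.75% over all genes and compounds). ABCB1 had 292, 300 and 318 CPM in Control, 275, 276 and 281 in PFOS, 273, 289 and 283 in PFDA, 287, 273 and 279 in 8:2 FTS, and 284, 280 and 289 in 8:2 FTOH. These 4 groups lay below Control without overlap, whereas PFOA (300, 318 and 286) and PFDS (244, 260 and 310) overlapped it. The 4 separations share the same 3 Control libraries and are not independent. The largest difference was in PFDS, at a fold of 0.896 (95% interval 0.809 to 0.992, adjusted p = 0.846), and for the mean of the 6 compounds the fold was 0.931 (0.862 to 1.01, adjusted p = 0.561). Leaving out PFDS replicate 3, the highest of that group, gave the lowest adjusted p of any member in any comparison or alternative, 0.105. Without the pair of libraries that stood apart the ABCB1 log2 fold change for the mean was -0.07 in place of -0.10, and that for PFOA turned from -0.01 to 0.03.

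ABCC1, the main pump for glutathione conjugates and also a target of the oxidative stress factor NRF2, had 115, 117 and 122.8 CPM in Control. The values were 129, 144 and 126 in 8:2 FTOH, 131, 129 and 128 in PFOS, 125, 126 and 135 in PFDS, 136, 128 and 123.3 in 8:2 FTS, 129, 119 and 137 in PFDA, and 101, 121 and 120 in PFOA. The first 4 of these groups lay above Control without overlap, and PFOA was the only compound with a negative log2 fold change, at -0.05. As for ABCB1, the Control libraries are shared, so the 4 separations are not independent. The fold in 8:2 FTOH was 1.13 (95% interval 1.02 to 1.26, adjusted p = 0.552). ABCC1 also had the lowest p of all members in the test of any difference among the 7 groups (adjusted p = 0.839). Without the pair of libraries that stood apart its log2 fold change in 8:2 FTOH was 0.24 in place of 0.18 (adjusted p = 0.458).

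ABCC4, an exporter of cyclic nucleotides and prostaglandins, had 41.7, 45.7 and 43.2 CPM in Control and 39.5, 37.97 and 38.8 in PFDA. All PFDA libraries lay below Control, with a fold of 0.892 (95% interval 0.793 to 1.002, adjusted p = 0.601), and those of PFOS, at 40.3, 38.1 and 40.3, did as well. ABCC5, a relative that also carries cyclic nucleotides, had 92.9, 87.8 and 88.4 CPM in Control and 112, 98.6 and 93.8 in PFDA, all above Control, with a fold of 1.13 (0.997 to 1.28, adjusted p = 0.601). ABCC10, a broad drug pump, had 34.4, 29.3 and 26.8 CPM in Control and 37.5, 39.8 and 29.4 in PFDA, and the groups overlapped (fold 1.17, adjusted p = 0.609). The ABCC10 log2 fold change without the pair that stood apart was 0.154 in place of 0.229, and it was positive for 2 compounds in place of 5. ABCC11, which sets earwax type, was near the floor: 7, 8 and 6 counts in Control, 9, 6 and 25 in PFDS, 6, 1 and 2 in 8:2 FTS, and 0, 38 and 1 in 8:2 FTOH. One library thus carries nearly all counts of the 8:2 FTOH group. ABCC6 is uncertain because of the near-identical pseudogenes ABCC6P1 and ABCC6P2. ABCC2 and ABCC3, canalicular and basolateral conjugate pumps of liver, had Control levels of 0.0721 and 0.0930 CPM per kilobase.

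ABCC8 and ABCC9 are no pumps but the sulfonylurea receptors of ATP-sensitive potassium channels. ABCC8 had 13.4, 14.1 and 10.8 CPM in Control, 15.7, 13.6 and 16.3 in PFOA, 15.9, 14.3 and 15.1 in 8:2 FTOH, and 15.4, 14.8 and 14.6 in PFDA. The 8:2 FTOH and PFDA libraries lay above Control, with folds of 1.18 (95% interval 0.972 to 1.43, adjusted p = 0.720) and 1.17 (0.970 to 1.41, adjusted p = 0.670). PFOA overlapped Control at a fold of 1.20 (0.989 to 1.44, adjusted p = 0.531). The lowest Control library was 1 of the pair that stood apart, and without the pair the ABCC8 log2 fold changes were 0.129 in place of 0.235 for 8:2 FTOH, 0.122 in place of 0.223 for PFDA and 0.155 in place of 0.257 for PFOA. ABCC9 had a Control level of 0.0449 CPM per kilobase and an interval too wide to place a 2-fold change.

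**Figure D4:**
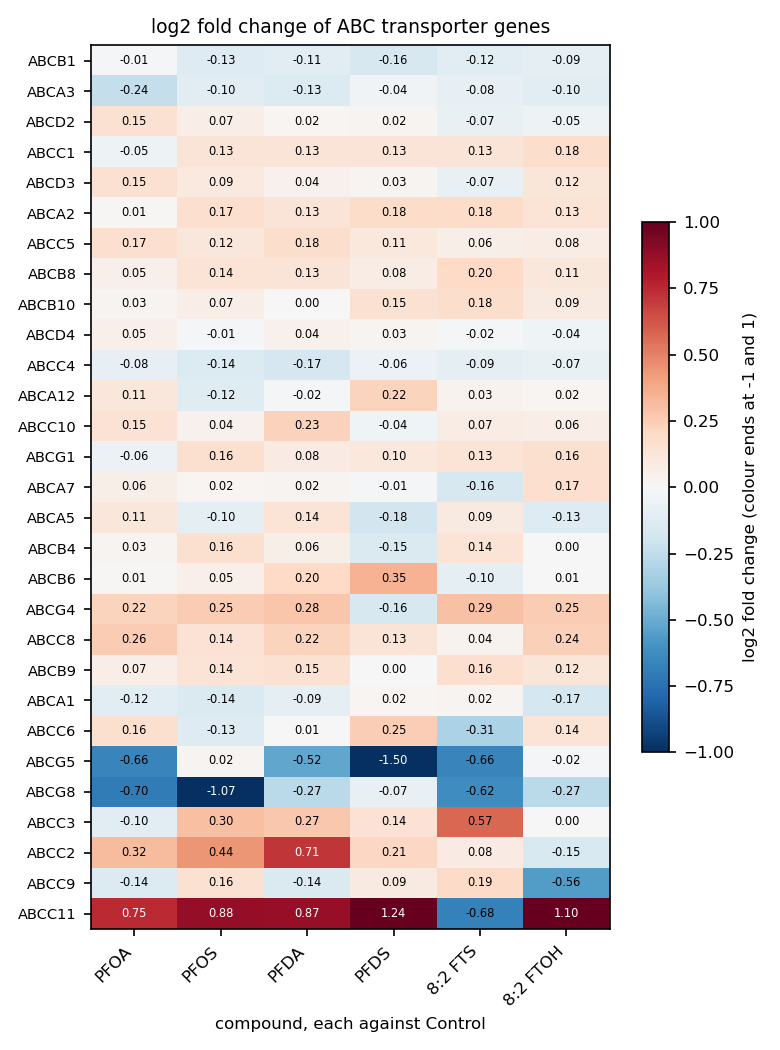
Heat map of log2 fold changes of the members reported here (rows, ordered by Control level) for the 6 compounds against Control (columns), with the value in each cell and colours that end at -1 and 1. The upper rows are pale, and the strong colours are in the lowest rows, such as -1.07 for ABCG8 in PFOS and 1.24 for ABCC11 in PFDS, where counts are few.

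Across all tested members, the number of members whose 3 exposed libraries all lay above or all lay below the 3 Control libraries was between 1 and 4 of 31 in each direction. In PFOA 1 lay above and 2 below, where 7.44% and 8.47% of all genes did. In PFOS the counts were 3 above (6.60%) and 2 below (7.42%), and in PFDA 4 above (7.90%) and 2 below (7.85%). In PFDS 3 lay above (3.71%) and 1 below (4.53%). In 8:2 FTS 3 lay above (6.62%) and 2 below (7.17%), and in 8:2 FTOH 4 above (5.95%) and 2 below (6.98%). Over the 18 exposed libraries of the 6 compounds, 0 members lay above all Control libraries (0.129% of all genes) and 0 below (0.342%). The median log2 fold change of the members was 0.03 in PFDS, 0.05 in PFOA, 0.06 in PFDA, 8:2 FTS and 8:2 FTOH, and 0.07 in PFOS, beside 0.0022 to 0.0092 over all genes. Without the pair of libraries that stood apart the 8:2 FTOH median was -0.0045. The log2 fold change was positive for all 6 compounds in 5 members (ABCA2, ABCB10, ABCB8, ABCC5 and ABCC8) and negative for all 6 in 4 (ABCA3, ABCB1, ABCC4 and ABCG8), in comparisons that share the Control libraries. Scaling by library size alone raised the median log2 fold change of all genes to 0.0274 to 0.0775 over the 6 compounds, and with that common shift these counts were 11 and 3, without ABCB1 among the latter. Without the pair of libraries they were 5 and 3, and ABCB10 alone of the 5 stayed positive for all 6.

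The compounds differ in chain length and head group, and 7 pairs were compared at the same 30 µM and 24 h. PFOA and PFDA are perfluorinated carboxylic acids of shorter and longer chain, PFOS and PFDS the matching sulfonic acids, and 8:2 FTS and 8:2 FTOH a sulfonic acid and an alcohol whose fluorinated chain is joined through a short unfluorinated stretch. No member passed in any pair. For longer against shorter chain, PFDA against PFOA gave 0 calls (0% of all genes) and 1 unadjusted p under 0.05 (2.93%), and PFDS against PFOS gave 0 (0.00402%) and 3 (4.37%). For sulfonic against carboxylic acid, PFOS against PFOA gave 0 (0%) and 2 (4.90%), and PFDS against PFDA 0 (0%) and 3 (5.59%). For 8:2 FTS the counts were 0 (0%) and 3 (3.26%) against 8:2 FTOH, 0 (0%) and 1 (2.86%) against PFOS, and 0 (0%) and 3 (4.10%) against PFDS. DESeq2 called 0 in each pair. The lowest adjusted p of a member was 0.890 to 1 over the pairs, adjusted over genes within each pair and not over the 7 pairs. Members whose libraries did not overlap between the compounds were few. In PFDA against PFOA 1 lay above (4.81% of all genes) and 3 below (5.16%), and in PFDS against PFOS 2 above (3.96%) and 1 below (4.81%). PFOS against PFOA had 3 above (6.52%) and 3 below (6.35%), and PFDS against PFDA had 2 (4.20%) and 2 (5.23%). In 8:2 FTS 0 lay above 8:2 FTOH (4.21%) and 1 below (4.19%), 0 above PFOS (4.54%) and 1 below (4.92%), and 1 above PFDS (4.17%) and 1 below (3.67%).

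The member of smallest p differed from pair to pair, and each difference is given with its 95% interval. ABCA12 was at 60.8, 44.3 and 47.3 CPM in PFDS and at 38.3, 40.4 and 41.8 in PFOS, without overlap, a fold of 1.26 (1.06 to 1.501, adjusted p = 0.999). ABCC1 was at a fold of 1.13 in PFOS over PFOA (1.02 to 1.26, adjusted p = 0.958) and also 1.13 in PFDA over PFOA (1.02 to 1.26, adjusted p = 1.00), 2 pairs that share the PFOA libraries, the lowest of which was 101 CPM. ABCA5 was at 12.98, 14.3 and 12.3 CPM in PFDS and at 17.9, 15.9 and 15.4 in PFDA, without overlap, a fold of 0.800 (0.659 to 0.971, adjusted p = 0.890). ABCD3 was at 86.5, 71.7 and 76.5 CPM in 8:2 FTS, 94.8, 83.1 and 91.2 in 8:2 FTOH and 85.1, 91.1 and 87.7 in PFOS. Its fold was 0.876 against 8:2 FTOH (0.782 to 0.981, adjusted p = 1.00) and 0.892 against PFOS (0.797 to 0.998, adjusted p = 1). ABCC11 was at a fold of 0.265 in 8:2 FTS against PFDS (0.0871 to 0.803, adjusted p = 0.999) on the few counts given above. For ABCB1, the most abundant member, the folds in the 7 pairs ran from 0.919 to 1.03, and the bounds of their 95% intervals from 0.830 to 1.14.

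Genes that act around the transporters were read from 9 lists with 113 tested genes that are not members: sterol control through LXR and SREBP, apolipoproteins and intracellular cholesterol handling, xenobiotic receptors and metabolising enzymes, NRF2 and its targets, uptake carriers of the SLCO, SLC22 and SLC47 families, peroxisome biogenesis and beta-oxidation, mitochondrial heme and iron-sulfur assembly, the ATP-sensitive potassium channel pore with its partners, and ABC proteins outside the symbol pattern. In 7 of the 9 lists no gene passed for any compound against Control, for their mean or among the 7 groups. In the NRF2 list SLC7A11, the cystine importer that feeds glutathione synthesis, rose. It had 4.30, 6.65 and 7.88 CPM in Control, 10.9, 12.96 and 13.2 in PFOS, 13.8, 12.7 and 11.6 in 8:2 FTS, and 15.04, 18.8 and 18.6 in 8:2 FTOH. No library of these groups overlapped Control, and the log2 fold changes were 0.97, 1.02 and 1.48 (adjusted p = 0.00328, 0.00143 and 3.21e-07). The libraries of the other 3 compounds also lay above Control, the lowest at 8.87 CPM, with log2 fold changes of 0.57 in PFOA, 0.79 in PFDA and 0.71 in PFDS that did not pass (adjusted p = 0.193, 0.0972 and 0.120). SLC7A11 also passed for the mean of the 6 compounds, at a log2 fold change of 0.92 (adjusted p = 8.9e-05), and among the 7 groups (adjusted p = 1.7e-05). It was 1 of 11 NRF2 genes tested that are not members. The 4 members in that list, ABCC1, ABCC2, ABCC3 and ABCC4, did not pass in the same comparisons. In PFOS the SLC7A11 call was lost without Control replicate 1 or PFOS replicate 2, and in 8:2 FTS without Control replicate 1 (adjusted p = 0.0506).

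In the sterol list INSIG1, which holds back SREBP when sterol is plentiful and is itself an SREBP target, fell in 8:2 FTS. It had 151, 164 and 166 CPM in Control and 121, 121 and 115 in 8:2 FTS, a log2 fold change of -0.43 (adjusted p = 0.0343), and it fell by 0.28 on the log2 scale over the mean of the compounds (adjusted p = 0.0397). The 8:2 FTS call was lost when any 1 of the 6 libraries compared was left out, and also without the pair that stood apart. The call for the mean was made in 15 of 29 fits, the one given here included, with adjusted p up to 0.471. It was lost with scaling by library size alone, without any 1 of the Control libraries and without the pair. Leaving out certain single libraries of each compound lost it as well. The sterol list holds ABCA1 and ABCG1, the members that LXR controls, and their folds in 8:2 FTS were 1.02 and 1.10, within groups that overlapped Control. Their log2 fold changes without the pair were 0.141 in place of 0.0237 for ABCA1 and 0.251 in place of 0.134 for ABCG1. In the other lists, the gene of lowest p among the 7 groups was LRP1 among the apolipoproteins and cholesterol genes (adjusted p = 0.648), NQO1 among the xenobiotic genes (0.839), SLC22A23 among the carriers (0.788), PEX6 among the peroxisome genes (0.811), SLC25A37 among the heme and iron-sulfur genes (0.840), KCNJ8 among the channel genes (0.951) and ABCF1 among the other ABC proteins (0.907).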

How the data were processed

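RNA-seq of 21 libraries in 7 groups of 3 was used. The authors deposited raw counts per gene. Per the submitters' processing notes, reads were checked with FastQC and MultiQC, aligned with HISAT2 to hg38, handled with SAMtools and counted with featureCounts. The counting used version 2.0.1 of featureCounts without a strand option, per the file headers, although the labels' protocols name a stranded kit. Reads of overlapping genes on either strand can therefore be lost. The authors' normalized table was not used here.

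Gene types came from GENCODE release 29. In edgeR 4.0.16 (R 4.3.3), filterByExpr kept 24879 genes, and libraries were scaled with TMM. A robust quasi-likelihood model was fitted over all 21 libraries, with Benjamini-Hochberg adjustment across genes in each of 15 comparisons and a threshold of 0.05. The script was tested on simulated counts with a single spread for all genes and no library that deviated from its group. The real libraries differ in this, so the run checked the code and not the power in these data. Depth ran from 7680024 to 30429746 counts, so a gene without a count in the shallowest library may be at up to 0.391 CPM (3 counts, counting error only). Intervals are 95% intervals of the fitted log2 fold change.

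The members and the gene lists were chosen with earlier results of these data known. Named members were the 3 of smallest p in each comparison with Control, for the mean and among the 7 groups, the 1 of smallest p in each pair, the 10 of highest Control level, and ABCA1, ABCG1, ABCG4, ABCB1, ABCC1, ABCG2 and ABCC8; some genes that these rules name are not reported here, though counts over the members and lists include them. From the lists, genes past the threshold and the gene of smallest p among the 7 groups were named. Alternatives covered scaling, filter, DESeq2 1.42.0, only the groups compared, a replicate block and left-out libraries. Promoter letters came from RefSeq, GRCh38.p14.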

Additional observations from a re-analysis of the deposited data

How the results depend on the processing

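No member passed an adjusted p of 0.05 in any of 15 comparisons under 232 alternative fits. These covered 2 other scalings, 2 other filters, DESeq2, fits of only the groups compared, the replicate block and every library left out. The members tested were 27 under the stricter filter and 39 with no filter. DESeq2 gave 26 of 39 members no adjusted p for PFOA and for PFDA, so those could not pass. With no filter 161 of 45863 genes passed for PFOA, against 8 of 24879 in the main fit. All 509 alternative values of the 31 fold changes named by smallest p kept their sign, but this is a weak check. For the test among the 7 groups the value is a range from lowest to highest, which cannot be negative. The other values were named for small p in libraries that the alternatives mostly reuse. Signs not named in this way did change. Without the 2 libraries of highest mitochondrial share, ABCA7 was positive for 1 compound in place of 4. Same-numbered libraries showed no sign of deviating together: 1 of 63 pairs had a correlation above 0.1 (median -0.0027), and 8 of 21 libraries matched their own number best. What the replicate number stands for was not stated and cannot be settled by these correlations. With the replicate block 0 members passed in each comparison, with a lowest adjusted p of 0.331 for PFOA.

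The median log2 fold change of the members is small and moved with scaling, filter and libraries. Apart from the shift of all genes with scaling, the cause was not tested. With scaling by library size alone it was 0.118 for PFOA, 0.124 for PFDA, 0.0556 for PFDS, 0.115 for 8:2 FTS and 0.103 in 8:2 FTOH, where the median over all genes rose as well, to 0.0775, 0.0726, 0.0274, 0.0601 and 0.0450. With no filter it was 0.0192 for PFOA, 0.0479 for PFDA and 0.0168 for 8:2 FTS, and with the stricter filter 0.0696 for PFDA. Leaving out single libraries gave 0.0134 to 0.0856 for PFOA, 0.0625 to 0.0887 for PFDA, -0.0023 to 0.0512 for PFDS, 0.0304 to 0.0929 for 8:2 FTS and 0.0143 to 0.107 in 8:2 FTOH. Without the 2 libraries of highest mitochondrial share it was 0.0887 for PFDA and -0.0045 for 8:2 FTOH. The summed Control level was 175.2 with library size alone and 534.3 in TPM, which is another unit.

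Counts of related genes past the threshold rested on few genes. Without the 2 libraries they were 1 for PFOA, PFDA, PFDS and 8:2 FTS. With no filter they were 1 for PFDA, 2 for PFDS and 2 for 8:2 FTOH. Calls over all genes rose there as well, to 68, 86 and 107 of 45863. In the main fit those were 2, 6 and 8 of 24879. They were 1 for PFDA with library size alone or only the groups compared, and 1 for PFDS with DESeq2. Leaving out single libraries gave 0 to 1 for PFOA, PFOS, PFDA and 8:2 FTS, 0 to 3 for PFDS and 1 to 2 for 8:2 FTOH. The 6 members below 0.3 CPM per kilobase have intervals that reach beyond 2-fold. Depth and the spread between libraries both enter these intervals and were not separated.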
